A study of Homo sapiens with 12 samples.

Results

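Oestrogen target genes are the genes whose transcripts rise or fall when estradiol reaches its nuclear receptor. The ligand-bound receptor, encoded by ESR1 or ESR2, settles on oestrogen response elements in promoters and distant enhancers, often where FOXA1 and GATA3 have opened the chromatin, and recruits coactivators such as the p160 proteins, while corepressors such as NRIP1 limit the response. The genes described here are the ones best known as readouts of that receptor in breast cancer cells, among them GREB1, MYC, CCND1, PDZK1, NRIP1 and TFF3. They were listed by symbol, 34 in all, for their known regulation, but with earlier results of these data already known. 33 of the 34 matched 1 locus each among the 30574 loci of the series, 19 of them reached the level needed for a test, and 14 did not. TFF3 matched no locus by that name and is not analysed here.

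The cells were IOSE80, which derive from normal human ovarian epithelium and were immortalised, and their RNA was sequenced after an exposure of 28 days. The exposures were E2 (estradiol, whose dose the sources used here do not give), bisphenol A (BPA, a plastics monomer with weak oestrogenic activity) at 0.25 nM or at 2500 nM, and DMSO at 0.1%, taken here as the vehicle although the labels of the other groups name no solvent. 11 libraries were analysed, 2 of E2 and 3 each of DMSO, BPA 0.25 nM and BPA 2500 nM; E2 replicate 3 was not analysed here. Whether replicates were separate cultures is not stated in the labels, so a p-value reflects the spread among these libraries alone, possibly a technical one, and all results rest on 1 cell line.

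Values are FPKM, fragments scaled to transcript length and library size, and levels of different genes are compared only on that scale per length. FPKM totals were 206719 to 213663 per library, 21223 to 23696 loci stood above 0, and depth was estimated from the steps between low values at 27700000 to 41700000 fragments, at which 1 fragment on a transcript of 2 kb is worth 0.012 to 0.0181 FPKM. Against the label of an epithelium, KRT18 averaged 22.8 FPKM and KRT8 1.34 FPKM, but KRT19, CDH1, EPCAM and ELF3 averaged 0.15, 0.01, 0.35 and 0.05 FPKM over the 11 libraries. Of 7 mesenchymal markers, VIM averaged 688 FPKM and COL3A1, in a locus joined with a microRNA, 28.7 FPKM, but FN1, CDH2, COL1A1, COL1A2 and DCN averaged 0.57 FPKM or less. Of 8 markers of ovarian surface epithelium and mesothelium, only NR2F2 was high enough to test (3.19 FPKM), while WT1 was at or near 0. The 6 luminal markers summed to 25.02 to 25.88 FPKM in E2 libraries, and along the BPA doses to 21.68 to 29.29 in DMSO, 23.6 to 26.82 in BPA 0.25 nM and 23.11 to 23.62 in BPA 2500 nM, so these sums, mostly KRT18, overlapped between E2 and DMSO and between either BPA dose and DMSO. COL3A1 ran from 27.48 to 29.27 FPKM in E2 and 22.97 to 23.77 in BPA 2500 nM, both below DMSO, at 30.3 to 32.07. In BPA 0.25 nM it ran from 30.43 to 33.04 and overlapped DMSO. VIM overlapped DMSO in every treatment. PTPRC, which marks leukocytes, and CDH5, which marks endothelium, were at or near 0. The leukocyte marker CD68 is found only in a locus joined with SENP3 and EIF4A1, which averaged 46.0 FPKM, so its own level is not known.

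The RefSeq table (GRCh38.p14) held start windows, from 250 bases before to 50 bases after a transcription start, for 25 of the 33 genes, 47 windows in all. It held none for GREB1, MYC, CCND1, MYBL1, EGR3, SGK3, ADCY9 and RERG, so what follows on windows does not cover them. The 2 sequences below are shown because they belong to genes at opposite ends of the list by level and both hold 1 arm of the oestrogen response element: PDZK1, the highest gene of the list, and CXCL12, which was hardly detected. They are the 250 bases before the start on the minus strand, 5′ to 3′, and capitals mark the arm AGGTCA. PDZK1 lies at chr1:145707369-145707618 and CXCL12 at chr10:44385098-44385347. The measured PDZK1 locus begins upstream of these bases, as given below.
PDZK1: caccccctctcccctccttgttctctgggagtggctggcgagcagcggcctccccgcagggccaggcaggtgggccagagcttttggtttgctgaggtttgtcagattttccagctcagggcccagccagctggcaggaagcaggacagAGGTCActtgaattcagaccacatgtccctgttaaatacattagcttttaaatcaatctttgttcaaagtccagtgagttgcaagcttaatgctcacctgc
CXCL12: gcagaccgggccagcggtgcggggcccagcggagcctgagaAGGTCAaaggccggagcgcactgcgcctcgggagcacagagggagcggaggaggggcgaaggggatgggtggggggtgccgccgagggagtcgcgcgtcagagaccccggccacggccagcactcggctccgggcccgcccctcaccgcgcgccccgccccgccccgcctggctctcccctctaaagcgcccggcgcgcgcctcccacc
PRSS23, at an alternative start, holds the same arm on the other strand; capitals mark it in the 22 bases at chr11:86791043-86791064, plus strand.
PRSS23: tcccagtgTGACCTtcattgcc
The arm AGGTCA was found in 4 of the 47 windows of these genes (8.51%), against 13.8% of all 35116 windows in the table, and the other 22 genes with a window held none. Windows of 1 gene were counted separately, and the overlapping windows of PDZK1 hold the same arm. The full palindrome, GGTCA and TGACC with any 3 bases between them, was found in none of the 47 windows, and in 20 of the 35116 (0.057%). The Sp1 box GGGCGG was found in 32 of the 47 windows (68.1%), against 45.0% of all, and the AP-1 site TGANTCA in 2 (4.26%, those of GATA3 and PKIB), against 7.71%. The Sp1 box is all G and C, and windows of these genes had a higher median GC content, as given below. The part of base composition in these shares was not tested. All motifs were searched on both strands, the palindrome includes most of an arm on each side, and neither gene with an AP-1 site held an arm. These matches are letters in a short window, and enhancers, where the receptor often binds, lie outside it.

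The base composition of the start windows is given as a description, with no test, and for a gene with several windows it is that of the window with the highest CpG ratio. The CpG observed over expected ratio had a median of 0.91 in the 13 tested genes with a window and 0.88 in the 12 untested ones, against 0.63 over 27305 genes in the table, and GC content had medians of 70.7% and 74.0%, against 59.3%. PDZK1 stood apart, with the highest level (51.2 FPKM) and, of these windows, the lowest CpG ratio (0.19), although alternative windows of PKIB and PRSS23 had ratios of 0.09 and 0.11. Its locus in the files lies on chromosome 1 from 145670852 to 145721611 on the minus strand. It runs 13463 bases past the upstream end of the GENCODE 29 gene, so it begins upstream of this window. Which start gives the listed level of PDZK1 was not tested. The locus also runs over a locus named CD160 on the other strand, which averaged 33.99 FPKM. The sources used here do not say whether strand was kept, so PDZK1 and CD160 transcripts cannot be told apart in this value.

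**Figure D1:**
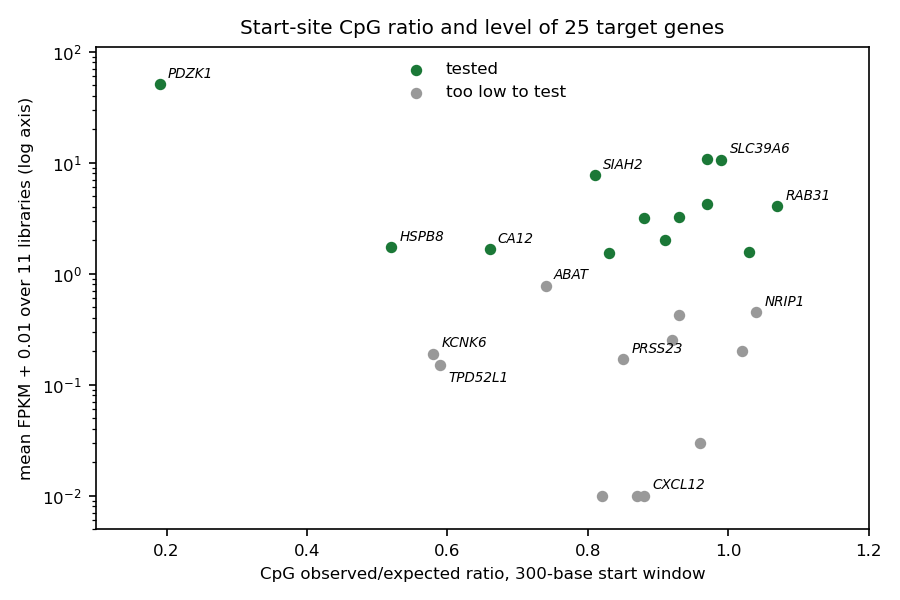
CpG observed over expected ratio of the 300-base start window, the highest of a gene's windows (x axis), against mean level over 11 libraries (y axis, FPKM + 0.01, log axis) for the 25 oestrogen target genes with a RefSeq window, 1 point per gene. Tested genes (green) and genes too low to test (grey) both lie mostly above a ratio of 0.6, and PDZK1 sits alone at 0.19 with the highest level. The measured PDZK1 locus begins upstream of its window.

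The receptors themselves were nearly silent. The highest value of any library was 0.02 FPKM for ESR1, 0.04 FPKM for ESR2 and 0.01 FPKM for ESRRB, an orphan relative. GPER1, a membrane receptor reported to respond to estradiol, was present at 3.05 and 1.39 FPKM in E2 cells, against 1.58, 2.02 and 2.96 FPKM in DMSO cells, so the E2 libraries enclosed the DMSO ones (log2 change -0.01 ± 0.23 (SE), adjusted p = 0.991). ESRRA, an orphan receptor that binds related DNA sites without estradiol, had the highest listed level of these receptors. Its locus lies over TRMT112 on the other strand, which averaged 56.64 FPKM, and that of GPER1 over C7orf50, which averaged 12.11 FPKM, and the part of these genes in the receptor values was not tested. ESRRG, the remaining receptor of this kind, matched no locus by that name and is not analysed here. ESRRA stood at 20.79 and 18.21 FPKM in E2 cells, and along the BPA doses at 12.27, 15.36 and 16.93 FPKM in DMSO, 17.40, 20.72 and 19.87 FPKM in BPA 0.25 nM, and 20.98, 19.21 and 18.78 FPKM in BPA 2500 nM. Every treated library lay above the 3 DMSO libraries, yet none of the log2 changes passed the test: 0.38 ± 0.12 for E2, 0.37 ± 0.11 for BPA 0.25 nM and 0.39 ± 0.11 for BPA 2500 nM (limma adjusted p = 0.192, 0.441 and 0.123), and these comparisons share their DMSO libraries.

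By level, 4 of the 33 genes averaged 10 FPKM or more, 8 averaged 3 to 10, 7 averaged 1 to 3, 8 averaged 0.1 to 1, and 6 averaged under 0.1 FPKM. The 6 lowest were GREB1, a receptor cofactor and among the most sensitive readouts of estradiol in breast cancer cells (0.04 to 0.11 FPKM), PKIB, an inhibitor of protein kinase A (0.01 to 0.04 FPKM, in a locus joined with a second name), GATA3 (0.00 to 0.02 FPKM), AREG, a ligand of the EGF receptor (0.00 to 0.03 FPKM), CXCL12, a chemokine (0.00 to 0.01 FPKM), and RERG, a Ras-like growth inhibitor (0.00 to 0.01 FPKM). With no filter on level none of the 6 changed against DMSO, and the 95% intervals on the scale log2(FPKM + 1) lay between -0.10 and 0.05, so no treatment brought any of them near 1 FPKM. That scale says little about the fold change of values so close to 0.

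**Figure D2:**
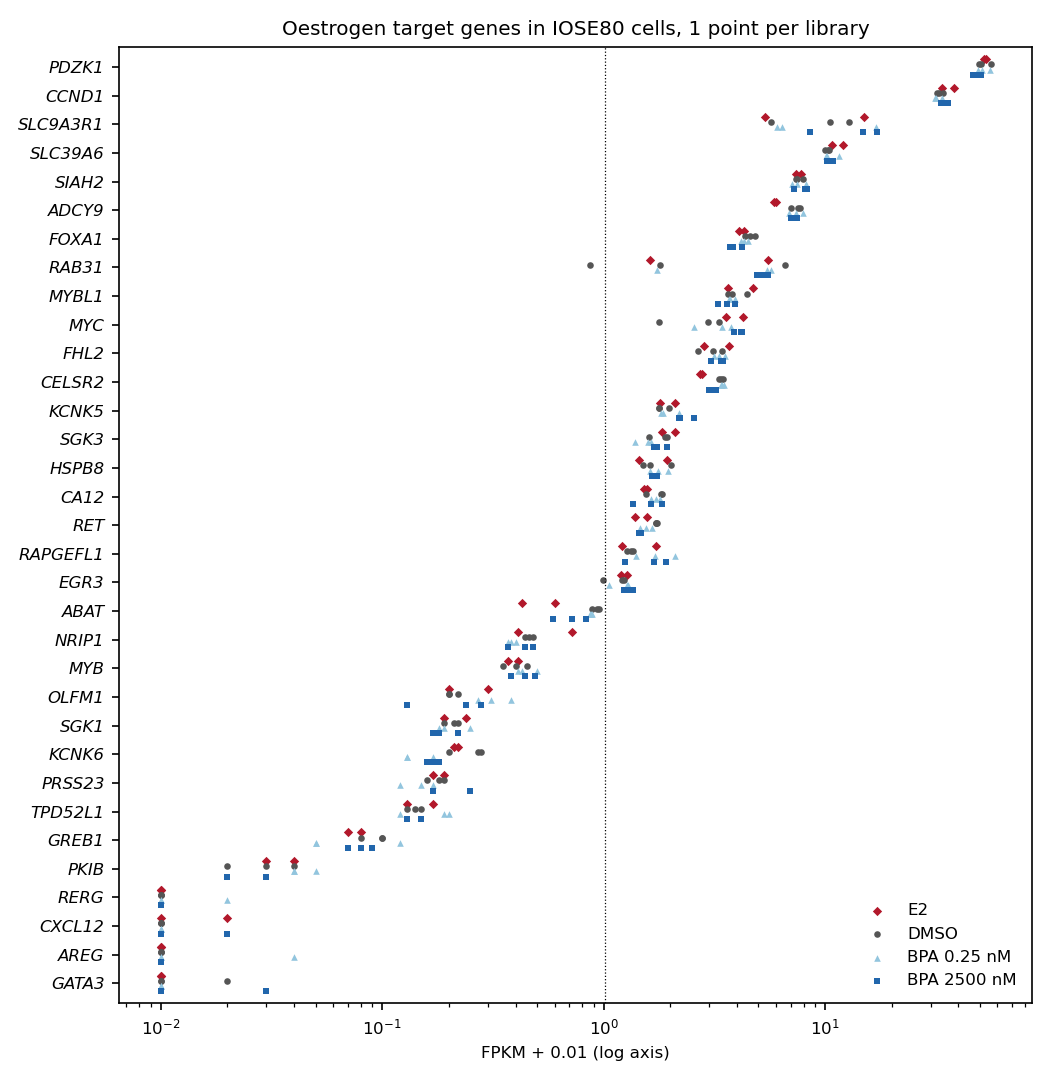
Level of the 33 oestrogen target genes with a locus (y axis, ordered by mean) in every library (x axis, FPKM + 0.01, log axis), 1 point per library: E2 (red diamonds), DMSO (dark circles), BPA 0.25 nM (light triangles) and BPA 2500 nM (blue squares). Levels run from PDZK1 near 51.2 FPKM to genes at or near 0, and the dotted line marks 1 FPKM. Among the 19 tested genes, only RAB31 and SLC9A3R1 spread widely among libraries of 1 group.

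None of the 19 tested genes changed in any of 5 comparisons (limma on log2(FPKM + 1), Benjamini-Hochberg adjustment over all 12182 tested loci, adjusted p under 0.05). For E2 against DMSO, 0 of 19 passed, against 0.419% of all tested loci (51). For BPA 2500 nM against DMSO it was 0 of 19, against 1.3% (158), and for BPA 0.25 nM against DMSO 0 of 19, against 0.0164% (2). Between the BPA doses the count was 0 against 0.0657% (8), and between E2 and BPA 2500 nM 0 against 0.041% (5), where the unknown dose of E2 means that doses are not matched. With so small a share of loci called anywhere, a count of 0 among 19 is near the background. In bulk RNA such as this, fewer expressing cells and less RNA per cell cannot be told apart.

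The unadjusted p-values of the list were also near the background. An unadjusted p under 0.05 was reached by 3 of the 19 genes for E2 (15.8%, against 15.4% of all tested loci), by 5 for BPA 2500 nM (26.3%, against 17.2%) and by none for BPA 0.25 nM (against 9.11%). Between the BPA doses 2 genes reached it (10.5%, against 7.81%), and between E2 and BPA 2500 nM 2 (10.5%, against 9.01%). E2 and DMSO libraries did not overlap for 6 of the 19 genes (31.6%, against 28.4% of all tested loci), BPA 2500 nM and DMSO libraries for 5 (26.3%, against 26.6%), and BPA 0.25 nM and DMSO libraries for 2 (10.5%, against 17.1%). The BPA doses did not overlap for 4 (21.1%, against 16.7%), nor did E2 and BPA 2500 nM for 4 (21.1%, against 23.7%).

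Direction was mixed in each comparison. With E2, 12 of the 19 log2 changes were positive and 7 negative, with a median of 0.049, against -0.007 over all tested loci. With BPA 2500 nM, 10 were positive and 9 negative (median 0.044, against -0.027), and with BPA 0.25 nM 9 were positive and 10 negative. The median size of a change, regardless of sign, was 0.081 for E2, against 0.1 over all tested loci, 0.104 for BPA 2500 nM, against 0.099, and 0.053 for BPA 0.25 nM, against 0.076. These comparisons share the 3 DMSO libraries.

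The intervals give a range of sizes around each estimate. They are not adjusted for the number of loci, so they are not the smallest change that could be called. For 17 of the 19 genes the 95% interval lay within a 2-fold change of FPKM + 1 either way in every comparison, the exceptions being RAB31 and SLC9A3R1. Within 1.5-fold it was 16 of 19 in each comparison with DMSO, with MYC also outside. The scale of log2(FPKM + 1) understates fold changes in FPKM, most of all for genes near 1 FPKM, so these limits are those of that scale. For MYC and the lower of the 19, an interval within 2-fold on it need not lie within 2-fold in FPKM.

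**Figure D3:**
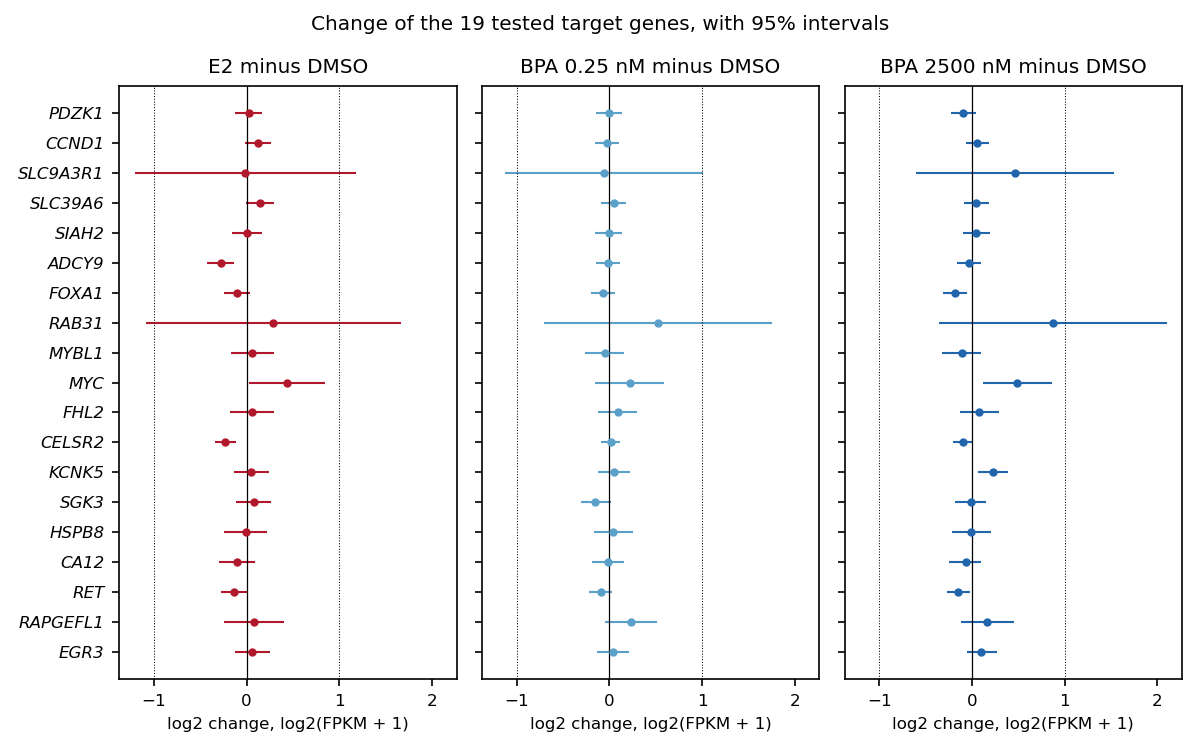
Log2 change on the scale log2(FPKM + 1) (x axis) of the 19 tested oestrogen target genes (y axis, ordered by mean level) for E2 minus DMSO, BPA 0.25 nM minus DMSO and BPA 2500 nM minus DMSO; points are estimates, lines are 95% intervals, and dotted lines mark a 2-fold change either way. All intervals except those of RAB31 and SLC9A3R1 lie inside the dotted lines, and no change passed the adjusted threshold.

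Of the 9 transcription factors and cofactors, 5 were tested. MYC, which drives growth and is an early target of the receptor in breast cancer cells, had the largest estimate among these 5 with E2 and with BPA 2500 nM. It was listed at 4.26 and 3.56 FPKM in E2 cells, and along the BPA doses at 2.95, 3.31 and 1.76 FPKM in DMSO, 3.40, 3.74 and 2.55 FPKM in BPA 0.25 nM, and 4.18, 3.86 and 4.20 FPKM in BPA 2500 nM. E2 and BPA 2500 nM libraries lay above all 3 DMSO libraries, BPA 0.25 nM libraries overlapped them, and DMSO replicate 3 was the lowest of all. The log2 changes were 0.44 ± 0.18 for E2 (adjusted p = 0.295), 0.49 ± 0.16 for BPA 2500 nM (adjusted p = 0.176) and 0.22 ± 0.16 for BPA 0.25 nM (adjusted p = 0.731). Without DMSO replicate 3 they were 0.25 (adjusted p = 0.469), 0.30 (adjusted p = 0.272) and 0.02 (adjusted p = 0.963) for MYC.

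FOXA1, the pioneer factor of the receptor, stood at 4.07 and 4.31 FPKM in E2 cells, and along the BPA doses at 4.81, 4.55 and 4.36 FPKM in DMSO, 4.30, 4.47 and 4.16 FPKM in BPA 0.25 nM, and 3.84, 4.21 and 3.70 FPKM in BPA 2500 nM. Both E2 libraries and all BPA 2500 nM libraries lay below the DMSO libraries, by small margins. The log2 changes were -0.18 ± 0.06 for BPA 2500 nM, the smallest p of the list in that comparison (adjusted p = 0.154), and -0.10 ± 0.06 for E2 (adjusted p = 0.498). MYBL1, a factor of the Myb family, EGR3, an immediate-early zinc finger factor, and FHL2, a LIM-domain cofactor, had log2 changes of 0.06 for E2 and of -0.11, 0.10 and 0.08 for BPA 2500 nM, none past the test. NRIP1, the ligand-dependent corepressor, was too low to test, at 0.40 and 0.71 FPKM in E2 cells, against 0.43, 0.47 and 0.45 FPKM in DMSO cells, so the E2 libraries lay on both sides of DMSO. Its BPA 0.25 nM libraries, at 0.39, 0.36 and 0.37 FPKM, lay below DMSO. With no filter on level that log2 change was -0.08 ± 0.08 (limma adjusted p = 0.831). MYB was likewise low, between 0.34 and 0.49 FPKM in all libraries.

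Among the 6 secreted factors, receptors and proteases with a locus, only CELSR2 and RET were tested. CELSR2, an atypical cadherin of planar cell polarity (chromosome 1, 109249539 to 109275751, GRCh38), had the smallest p of the list for E2. It was listed at 2.78 and 2.70 FPKM in E2 cells, and along the BPA doses at 3.45, 3.38 and 3.31 FPKM in DMSO, 3.47, 3.38 and 3.43 FPKM in BPA 0.25 nM, and 2.97, 3.04 and 3.22 FPKM in BPA 2500 nM. The E2 libraries were the lowest of the 11, the BPA 2500 nM libraries lay below DMSO, and the BPA 0.25 nM libraries lay among and just above DMSO. The log2 change was -0.23 ± 0.05 for E2 (adjusted p = 0.076), -0.10 ± 0.05 for BPA 2500 nM (adjusted p = 0.283) and 0.02 ± 0.05 for BPA 0.25 nM (adjusted p = 0.953). The adjusted p for E2 ranged from 0.0754 to 0.387 over the alternatives tried, and the call was missed in all of them. CELSR2 is on the list as a gene induced by estradiol in breast cancer cells, and the estimate here was negative.

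RET, the receptor of GDNF-family ligands, stood at 1.38 and 1.56 FPKM in E2 cells, and along the BPA doses at 1.71, 1.73 and 1.71 FPKM in DMSO, 1.54, 1.45 and 1.65 FPKM in BPA 0.25 nM, and 1.47, 1.44 and 1.46 FPKM in BPA 2500 nM. All 8 treated libraries lay below the 3 DMSO libraries, which lay close together. The log2 changes of -0.14 ± 0.06 for E2, -0.15 ± 0.06 for BPA 2500 nM and -0.09 ± 0.06 for BPA 0.25 nM did not pass (adjusted p = 0.336, 0.235 and 0.652). OLFM1, a secreted glycoprotein, and PRSS23, a secreted serine protease, were between 0.11 and 0.37 FPKM in every library. OLFM1 libraries of BPA 0.25 nM, at 0.26, 0.30 and 0.37 FPKM, lay above DMSO, at 0.21, 0.19 and 0.19 FPKM. With no filter on level that log2 change was 0.13 ± 0.06 (limma adjusted p = 0.784).

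Of the 9 genes of intracellular signalling, 5 were tested. ADCY9, an adenylyl cyclase that makes cyclic AMP (chromosome 16, 3953387 to 4116442), was listed at 5.99 and 5.84 FPKM in E2 cells, and along the BPA doses at 7.70, 7.51 and 7.02 FPKM in DMSO, 6.86, 7.34 and 7.92 FPKM in BPA 0.25 nM, and 7.25, 7.02 and 7.44 FPKM in BPA 2500 nM. The E2 libraries lay below all the others, and the BPA libraries overlapped DMSO. The log2 change was -0.28 ± 0.06 for E2 (adjusted p = 0.0783) and -0.25 ± 0.06 for E2 against BPA 2500 nM (adjusted p = 0.527), while for BPA 2500 nM against DMSO it was -0.03 ± 0.06, with a 95% interval of -0.16 to 0.10. As with CELSR2, the E2 estimate missed the threshold in every alternative, with an adjusted p of 0.0767 to 0.331.

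RAB31, a Rab GTPase of vesicle transport, varied among libraries of 1 group more than nearly any other locus. It was listed at 5.52 and 1.61 FPKM in E2 cells, and along the BPA doses at 6.55, 1.78 and 0.86 FPKM in DMSO, 5.43, 5.66 and 1.73 FPKM in BPA 0.25 nM, and 5.21, 4.91 and 5.51 FPKM in BPA 2500 nM. 7 libraries lay at 4.91 FPKM or more and 4 at 1.78 FPKM or less, with nothing between, and both kinds were found within E2, DMSO and BPA 0.25 nM. Only 0.837% of tested loci had a larger SD within groups on the log2 scale than RAB31 (0.77, against a median of 0.1 over all tested loci and 0.08 over the 19 genes). Its log2 change of 0.87 ± 0.55 for BPA 2500 nM, the largest estimate of the list, is therefore within that spread (adjusted p = 0.445), and so is 0.28 ± 0.61 for E2 (adjusted p = 0.876).

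The remaining signalling genes gave narrower results. RAPGEFL1, a relative of the Rap exchange factors, had BPA 0.25 nM libraries at 1.39, 2.10 and 1.69 FPKM, against 1.32, 1.27 and 1.35 FPKM in DMSO, just above them without overlap, for a log2 change of 0.23 ± 0.13 (adjusted p = 0.625). SGK3, a kinase downstream of PI3 kinase, had the smallest p of the list for BPA 0.25 nM, at 1.63, 1.37 and 1.58 FPKM, against 1.88, 1.92 and 1.60 FPKM in DMSO, which overlapped (log2 change -0.15 ± 0.07, adjusted p = 0.582). HSPB8, a small heat shock protein, had log2 changes of -0.01 for E2 and for BPA 2500 nM. SGK1, a kinase also induced by corticosteroids, and TPD52L1 stayed between 0.11 and 0.24 FPKM in all libraries, and the TPD52L1 locus lies over HDDC2 on the other strand.

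Of the 6 channels, transporters and membrane scaffolds, 5 were tested, and this group held the highest levels. PDZK1, a PDZ scaffold that organises transporters at the apical membrane, was listed at 53.13 and 52.19 FPKM in E2 cells, and along the BPA doses at 49.67, 50.62 and 55.81 FPKM in DMSO, 51.33, 49.20 and 55.52 FPKM in BPA 0.25 nM, and 50.55, 48.34 and 46.51 FPKM in BPA 2500 nM. Each treatment overlapped DMSO, while both E2 libraries lay above the 3 BPA 2500 nM libraries. The log2 change was 0.02 ± 0.07 for E2, with a 95% interval of -0.13 to 0.17 (adjusted p = 0.935), and -0.10 ± 0.06 for BPA 2500 nM (adjusted p = 0.429), with the limit on this locus given above.

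SLC9A3R1, the related scaffold also called NHERF1, was listed at 5.35 and 15.01 FPKM in E2 cells, and along the BPA doses at 12.84, 5.67 and 10.48 FPKM in DMSO, 6.37, 16.88 and 6.07 FPKM in BPA 0.25 nM, and 8.53, 14.84 and 17.18 FPKM in BPA 2500 nM. Libraries of 1 group differed as much as any groups did. Its 4 lowest libraries included DMSO replicate 2 and BPA 0.25 nM replicate 3, which were also low for RAB31, while the other two were high for RAB31. Only 1.17% of tested loci varied more within groups, and its locus is joined with a microRNA, MIR3615. The log2 changes were -0.02 ± 0.53 for E2 (adjusted p = 0.995) and 0.46 ± 0.48 for BPA 2500 nM (adjusted p = 0.659).

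KCNK5, a potassium leak channel, was listed at 2.08 and 1.78 FPKM in E2 cells, and along the BPA doses at 1.76, 1.76 and 1.97 FPKM in DMSO, 2.17, 1.85 and 1.80 FPKM in BPA 0.25 nM, and 2.18, 2.55 and 2.20 FPKM in BPA 2500 nM. All BPA 2500 nM libraries lay above the libraries of the other groups, and E2 overlapped DMSO. The log2 change for BPA 2500 nM was 0.23 ± 0.08 (adjusted p = 0.178), and against BPA 0.25 nM it was 0.17 ± 0.08 (adjusted p = 0.634). Its relative KCNK6 was too low to test with the rest. It was listed at 0.21 and 0.20 FPKM in E2 cells, and along the BPA doses at 0.19, 0.26 and 0.27 FPKM in DMSO, 0.12, 0.16 and 0.12 FPKM in BPA 0.25 nM, and 0.16, 0.15 and 0.17 FPKM in BPA 2500 nM. E2 overlapped DMSO, and the libraries of both BPA doses lay below it. With no filter on level the log2 change of KCNK6 was -0.13 ± 0.04 for BPA 0.25 nM (adjusted p = 0.741) and -0.10 ± 0.04 for BPA 2500 nM (adjusted p = 0.523).

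SLC39A6, the zinc transporter LIV-1, stood at 10.69 and 12.00 FPKM in E2 cells, against 10.35, 10.27 and 9.96 FPKM in DMSO cells, so both E2 libraries lay above DMSO. Its log2 change of 0.14 ± 0.07 did not pass (adjusted p = 0.369), and it was 0.22 without E2 replicate 1 and 0.06 without E2 replicate 2. The changes of 0.04 for BPA 2500 nM and 0.05 for BPA 0.25 nM were smaller than their standard errors of 0.06. CA12, a membrane carbonic anhydrase, had log2 changes of -0.10 ± 0.09 for E2 and -0.07 ± 0.08 for BPA 2500 nM, with overlapping libraries.

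CCND1 and SIAH2 were the tested genes of the cell cycle and ubiquitin group. CCND1, the cyclin that carries cells out of G1, was listed at 33.79 and 38.08 FPKM in E2 cells, and along the BPA doses at 32.69, 34.22 and 31.95 FPKM in DMSO, 31.33, 33.83 and 31.67 FPKM in BPA 0.25 nM, and 33.43, 35.71 and 33.58 FPKM in BPA 2500 nM. The groups overlapped. The log2 change was 0.12 ± 0.06 for E2 (95% interval -0.02 to 0.26, adjusted p = 0.411; 0.20 without E2 replicate 1 and 0.04 without E2 replicate 2) and 0.05 ± 0.06 for BPA 2500 nM (adjusted p = 0.664). SIAH2, a ubiquitin ligase, had changes of 0.00 ± 0.07 for E2 and 0.04 ± 0.07 for BPA 2500 nM.

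ABAT, the transaminase that breaks down GABA, did not reach 1 FPKM in any library and was not tested with the rest. It was listed at 0.59 and 0.42 FPKM in E2 cells, and along the BPA doses at 0.88, 0.94 and 0.92 FPKM in DMSO, 0.86, 0.87 and 0.88 FPKM in BPA 0.25 nM, and 0.82, 0.58 and 0.71 FPKM in BPA 2500 nM. The E2 libraries lay below DMSO, the BPA 2500 nM libraries lay below DMSO too, and the BPA 0.25 nM libraries touched it. With all loci in the fit and no filter on level, the log2 change of ABAT was -0.35 ± 0.08 for E2 (adjusted p = 0.174) and -0.17 for BPA 2500 nM (adjusted p = 0.458). With a pseudocount of 0.1 as well, chosen after seeing the data, the estimate for E2 was -0.76 ± 0.17 (adjusted p = 0.158). The locus lies over TMEM186 on the other strand, which averaged 5.36 FPKM, and the part of that gene in the value was not tested.

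**Figure D4:**
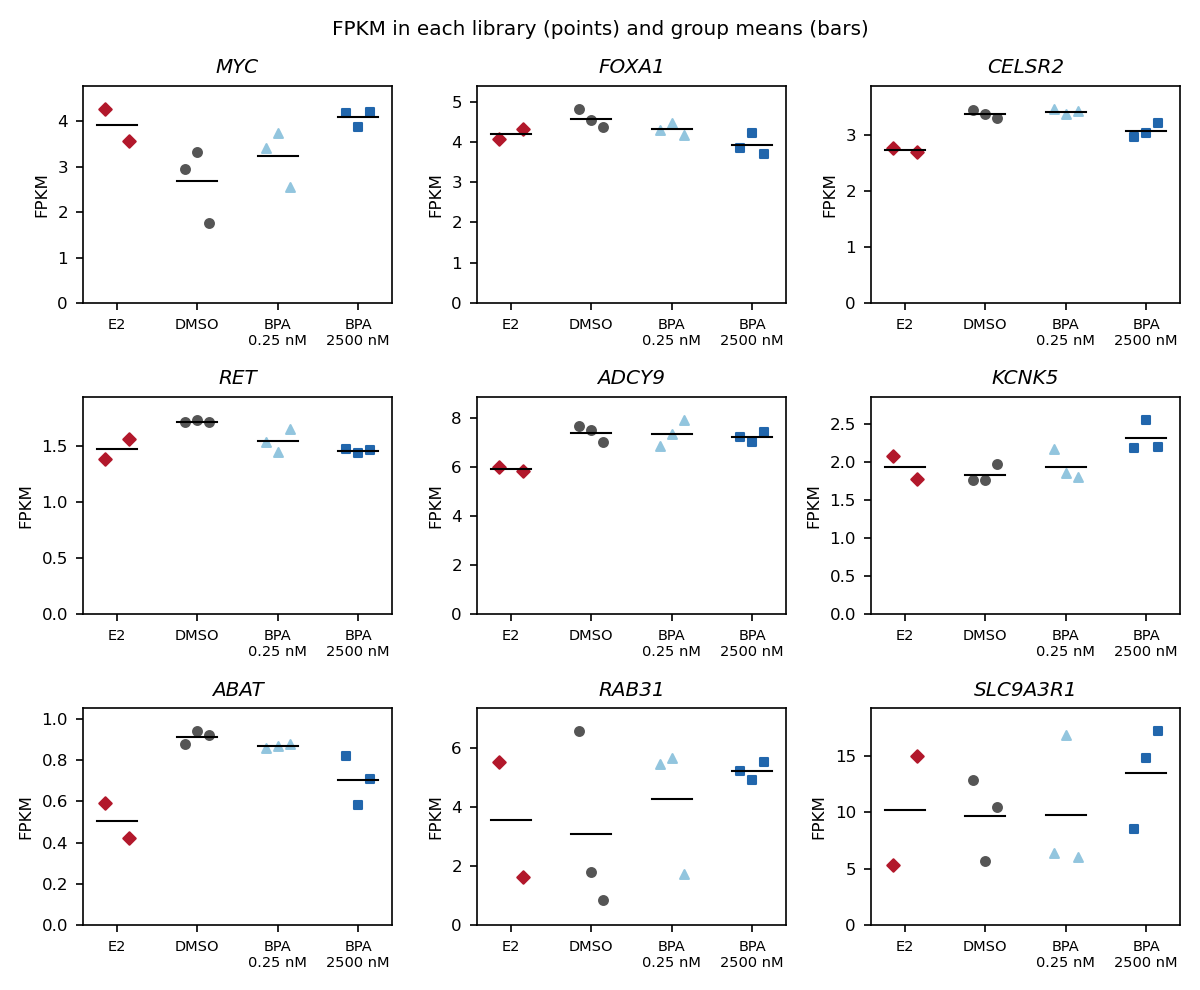
FPKM (y axis, from 0) in each library (points) with group means (bars) for 9 oestrogen target genes; E2, DMSO, BPA 0.25 nM and BPA 2500 nM stand left to right. CELSR2 and ADCY9 are lowest in the 2 E2 libraries, MYC is above DMSO with E2 and BPA 2500 nM, RET is highest in DMSO, and RAB31 and SLC9A3R1 differ several-fold among libraries of 1 group.

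Most of the rest of the pathway was expressed, the nuclear oestrogen receptors excepted. All 14 coactivators, all 9 corepressors and all 5 chaperones on the list were high enough to test, as were 7 of 11 enzymes of estradiol metabolism and 2 of 5 receptors with a locus. None of these 37 loci changed in any of the 5 comparisons, where 0.0164% to 1.3% of all tested loci were called. A count of 0 among 37 is near that background. An unadjusted p under 0.05 was reached by 6 of the 37 for E2 (16.2%) and 8 for BPA 2500 nM (21.6%), against the 15.4% and 17.2% of all tested loci given above. NCOA3, a p160 coactivator, had 7.87 and 8.92 FPKM in E2 cells, and along the BPA doses 8.92, 9.42 and 8.58 FPKM in DMSO, 8.11, 7.70 and 8.37 FPKM in BPA 0.25 nM, and 7.06, 7.79 and 6.85 FPKM in BPA 2500 nM. Its BPA 2500 nM libraries lay below DMSO (log2 change -0.28 ± 0.06, adjusted p = 0.0726), and its E2 libraries overlapped DMSO.

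HSD17B8, an enzyme that can oxidise estradiol to estrone, was listed at 2.54 and 2.67 FPKM in E2 cells, against 4.26, 4.68 and 4.33 FPKM in DMSO cells, well apart. The BPA 2500 nM libraries, at 3.16, 3.44 and 3.18 FPKM, also lay below DMSO, and the BPA 0.25 nM libraries, at 3.83, 5.44 and 4.28 FPKM, overlapped it. The log2 change of HSD17B8 for E2, -0.59 ± 0.11, missed the threshold (adjusted p = 0.0539), and it passed without BPA 0.25 nM replicate 2 (adjusted p = 0.0239). DDX5, an RNA helicase and coactivator, stood at 67.99 and 64.64 FPKM in E2 cells, against 58.01, 49.91 and 50.09 FPKM in DMSO cells, and likewise missed it (log2 change 0.33 ± 0.07, adjusted p = 0.069), passing without DMSO replicate 1 (adjusted p = 0.0314). HSP90AB1, a chaperone that holds steroid receptors ready for ligand, had a log2 change of 0.15 ± 0.04 for E2 (adjusted p = 0.106), PRMT1, an arginine methyltransferase and coactivator, one of 0.16 ± 0.06 for BPA 2500 nM (adjusted p = 0.196), and HSD17B10, a mitochondrial relative of HSD17B8, one of 0.28 ± 0.06 for BPA 0.25 nM (adjusted p = 0.307).

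Further genes known to respond to estradiol, listed separately, gave the same count. Of 18 with a locus 9 were tested, and none changed in any of the 5 comparisons. Of all tested loci 0.0164% to 1.3% were called, so a count of 0 among 9 is near the background. STC2, a secreted glycoprotein induced by estradiol in breast cancer cells, was listed at 2.19 and 1.83 FPKM in E2 cells, and along the BPA doses at 3.28, 2.93 and 2.87 FPKM in DMSO, 2.52, 2.15 and 2.41 FPKM in BPA 0.25 nM, and 1.75, 1.81 and 2.35 FPKM in BPA 2500 nM. All treated libraries lay below DMSO, with log2 changes of -0.42 ± 0.10 for E2 (adjusted p = 0.0902), -0.26 ± 0.09 for BPA 0.25 nM (adjusted p = 0.454) and -0.44 ± 0.09 for BPA 2500 nM (adjusted p = 0.0525). The last passed without BPA 2500 nM replicate 3 (adjusted p = 0.0479) and without either E2 library (adjusted p = 0.0484 and 0.0479 for STC2). VEGFA, the angiogenic factor, had a log2 change of -0.16 ± 0.06 for E2 (adjusted p = 0.252), UGCG, which makes glucosylceramide, one of 0.15 ± 0.08 (adjusted p = 0.385) and SLC7A5, an amino acid transporter, one of 0.00 ± 0.07 (adjusted p = 0.988). CISH, a feedback inhibitor of cytokine signalling, had one of 0.18 ± 0.08 for BPA 2500 nM (adjusted p = 0.303).

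Estradiol can also act within minutes through membrane receptors and the ERK kinases, and 15 genes of ERK feedback and early response were set beside the targets, 13 of them tested. The exposure here lasted 28 days. This list too was chosen with earlier results of these data known, so a call in it is not independent of them. SPRY2, a feedback inhibitor of receptor tyrosine kinase signalling (chromosome 13, 80335976 to 80341126), was the only gene of the 13 that changed. The count was 1 of 13 for E2, against 0.419% of all tested loci, and 1 of 13 for BPA 2500 nM, against 1.3%. SPRY2 was listed at 31.62 and 30.39 FPKM in E2 cells, and along the BPA doses at 23.30, 24.01 and 24.60 FPKM in DMSO, 25.25, 26.08 and 27.79 FPKM in BPA 0.25 nM, and 29.02, 29.57 and 28.81 FPKM in BPA 2500 nM. No treated library overlapped DMSO, and the E2 libraries were the highest. SPRY2 rose by a log2 change of 0.36 ± 0.05 with E2 (adjusted p = 0.0298) and 0.27 ± 0.05 with BPA 2500 nM (adjusted p = 0.031), and its 0.13 ± 0.05 with BPA 0.25 nM did not pass (adjusted p = 0.454). The direction of SPRY2 held in all 19 alternatives, but each of these calls was lost in 11 of them, with adjusted p up to 0.262 for E2 and 0.124 for BPA 2500 nM. Leaving out any DMSO or BPA 2500 nM library, or BPA 0.25 nM replicate 2, lost both, and leaving out E2 replicate 2 lost the call for E2. The other 12 tested genes of this list did not pass. For BPA 2500 nM the log2 change was -0.37 ± 0.10 for PHLDA1 (adjusted p = 0.12) and -0.17 ± 0.05 for ETV5 (adjusted p = 0.145), for E2 it was 0.20 ± 0.08 for SPRY4 (adjusted p = 0.293) and -0.16 ± 0.08 for JUN (adjusted p = 0.385), and for BPA 0.25 nM it was 0.30 ± 0.13 for FOSL1 (adjusted p = 0.541).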

How the data were processed

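Per locus and library the authors deposited a single FPKM value to 2 decimals. The submitters' processing notes list HISAT, UMI-tools, StringTie and edgeR, with neither versions nor order, and the build hg19. File coordinates match GRCh38 instead: of 14123 Ensembl loci also in GENCODE 29, 74.8% had the same start and end. Depth was not given. It was estimated from steps between low values among 2752 short loci, with 495 to 642 values used per library. Of those values 34.2% to 41.9% fell on steps, against 17.1% to 19.7% by rounding alone, too few for a count test.

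Loci that reached 1 FPKM in 2 or more libraries, 12182 in all, were analysed as log2(FPKM + 1), with 1 mean per group over all 11 libraries, in limma 3.58.1 (R 4.3.3, statmod 1.5.0, trend and robust settings, 7 residual degrees of freedom). Two-sided p-values received a Benjamini-Hochberg adjustment per comparison (5 in all), and loci were called at an adjusted p under 0.05. The procedure was tested on simulated data for the sign of changes and the share of false calls. No share of recovered changes was required there. Errors are standard errors (SE) of the log2 change. No 2 libraries held identical values. Python 3.11.15 with matplotlib 3.10.9, numpy 2.4.6 and pandas 2.3.3 made tables and plots.

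All 34 oestrogen target genes are named, and of the other lists every receptor, each called gene and the 3 with the smallest p in each comparison with DMSO. The members and lists were chosen with earlier results of these data known. Alternatives changed the pseudocount, the filter, the scaling, the variance settings and the groups in the fit, added a replicate block, or left out 1 library.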

Additional observations from a re-analysis of the deposited data

How the results depend on the processing

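The count of oestrogen target genes called was 0 in each of 5 comparisons under all 19 alternatives, and the smallest adjusted p of any of them was 0.0754 (CELSR2, E2 against DMSO, pseudocount 0.1). Leaving out 1 library at a time also gave 0 in each of 11 fits. With a replicate block the count was 0 in each comparison, but replicate numbers showed no clear pairing of the libraries. Deviations of same-numbered libraries from their group means correlated at -0.12 to 0.16 over 15 pairs, 1 of them over 0.1. Those of differently numbered ones correlated at -0.16 to 0.17 over 30 pairs. Deviations sum to 0 within a group, so the pairs are not independent and this check cannot exclude pairing. Over all tested loci the block left 5 calls for E2 against DMSO, against 51, and 38 for BPA 2500 nM, against 158. Those totals also moved without it, to 7 to 189 for E2 and 32 to 251 for BPA 2500 nM when 1 library was left out, and to 2 and 13 when only the groups compared were fitted; the cause was not tested. Of the 95 changes of single target genes, 37 switched sign under at least 1 alternative, in 72 of 1740 estimates, none of them called. The 14 untested genes were left out by the filter on level, and E2 comparisons rest on 2 E2 libraries.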
